A study of Mus musculus and Homo sapiens with 10 samples.

Results

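The human arm of the study compared H1 cells, an established line of human embryonic stem (ES) cells, in which the DNA methyltransferases (DNMTs) had been targeted by RNA interference with H1 cells carrying a control vector. Every gene whose mean over both libraries was at least 1 RPKM (reads per kilobase of transcript, scaled to the library total) was taken, with the RefSeq entry of the highest mean standing for each gene. This gave 11763 of the 22060 gene symbols in the human table (53.3%). The question addressed here was which cell functions stood apart between the libraries across the whole gene programme.

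Both cultures were at passage 69 and had been transduced with a lentivirus. The control virus carried an empty hairpin vector and the knockdown virus carried hairpins against DNMTs. Cytoplasmic RNA was taken, treated with DNase and selected for poly(A). Not given in the sources used here are the hairpin sequences and which DNMTs they target. Also not given are the time between transduction and harvest and whether feeder cells were present. Each group was 1 library, so no test was possible, and the knockdown cannot be told apart from any other difference between the 2 cultures. In bulk RNA, fewer cells of a type and less RNA per cell cannot be told apart either. The control library held 100921087 reads and the knockdown library 92478094, so that 1 RPKM over 1 kb was worth 100.9 and 92.5 reads.

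DNA methyltransferases place methyl groups on cytosines that are followed by guanine. DNMT1 copies the pattern onto the new strand at replication, while DNMT3A and DNMT3B set new marks. Dense methylation of a promoter is best known for keeping germ cell genes, imprinted alleles and transposons silent. Primed human ES cells rely on FGF and Activin or NODAL signals, divide fast, and draw much of their energy from glycolysis.

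The DNA methyltransferase genes were read first. Values are given with the control library first and the knockdown library second, followed by log2((knockdown + 0.5) / (control + 0.5)), which understates the difference of genes with low values. DNMT1 stood at 24.5 and 6.95 RPKM (log2 -1.75), that is 28.4% of control, with a 95% counting interval of 27.3 to 29.5%. DNMT3B stood at 181 and 75.9 RPKM (log2 -1.25) and DNMT3A at 17.9 and 12.2 RPKM (log2 -0.54). DNMT1 and DNMT3B were thus at least 2-fold lower and DNMT3A was lower by less. The labels name hairpins against DNMTs but not which ones. All 10 H1 identity markers were above the 1 RPKM limit. They lay on both sides of 0, with 7 below and 3 above. The pluripotency factor POU5F1, the most abundant, stood at 921 and 893 RPKM (log2 -0.044), the NODAL coreceptor TDGF1, the lowest, at 418 and 144 RPKM (log2 -1.54) and the RNA-binding protein L1TD1, the highest, at 80.3 and 223 RPKM (log2 1.47). The other 7 lay between log2 -0.82 (PRDM14) and 0.90 (NANOG). The 10 levels summed to 2125 RPKM in the control against 1849.7 after knockdown, and TDGF1 had the largest decrease among them.

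Across all genes the 2 libraries had almost the same centre, with a median log2 difference of 0.016 and quartiles of -0.31 and 0.33. Within a 2-fold band lay 91.1% of the genes. A total of 475 genes (4.04%) were at least 2-fold higher in the knockdown library and 569 (4.84%) were at least 2-fold lower, while 51.6% of all genes lay above 0. These 3 shares are the background for every count given for a function. The differences were larger than counting error, since all 475 higher genes and 568 of the 569 lower genes had a 95% counting interval of their ratio that did not include equal levels. The interval covers counting error only and says nothing of the spread between cultures.

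The higher and the lower genes differed in level. The higher genes had a median of 1.73 RPKM in the control against 7.02 RPKM after knockdown, and the lower genes 5.87 and 1.81, against 7.17 and 7.23 for the genes in neither set. A difference of at least 8-fold was found for 59 higher and 14 lower genes. The share of called genes was largest at low levels: between 1 and 2 RPKM 5.88% were higher and 9.24% lower, while between 50 and 100 RPKM the shares were 2.49% and 2.72%. Among the retained genes, 104 were under 0.5 RPKM in the control and 70 were under 0.5 RPKM in the knockdown library. Such a gene passed the limit on the mean only through its other library and had to differ, so its call is a consequence of the selection.

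**Figure D1:**
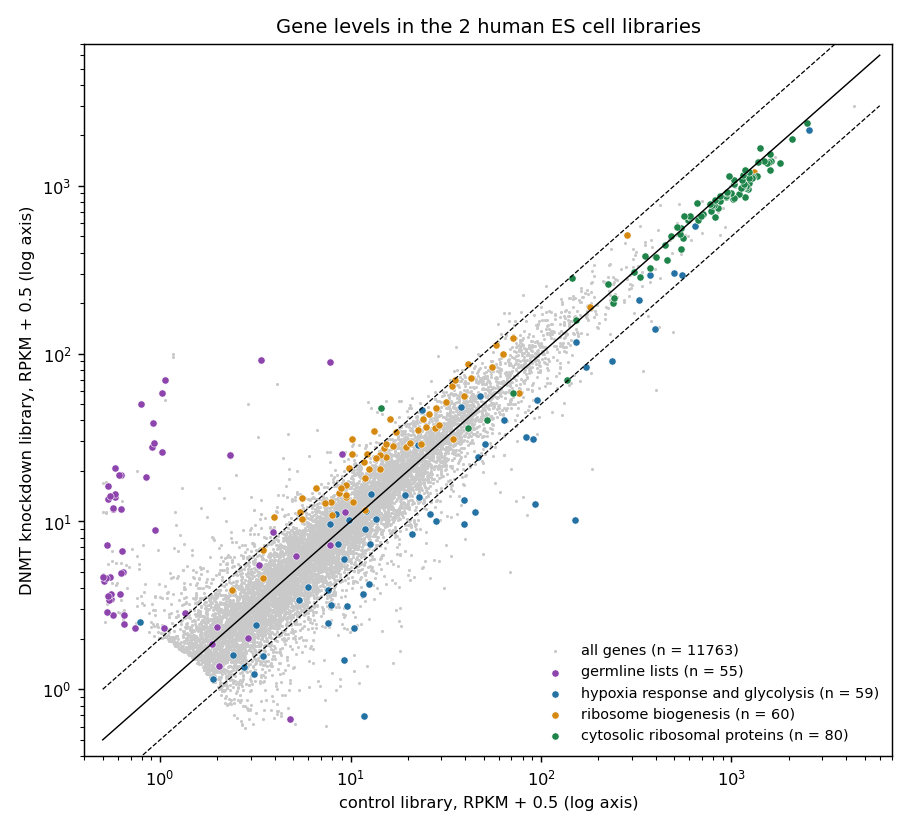
Level of each of the 11763 genes in the control (horizontal) and knockdown library (vertical), as RPKM + 0.5 on log axes; the solid line marks equal levels, the dashed lines a 2-fold difference, and colours mark 4 groups of gene lists. Most genes lie between the dashed lines, many germline genes lie high at the left edge, ribosome biogenesis genes lie mostly above the solid line and hypoxia response and glycolysis genes mostly below it.

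To read the differences by cell function, 86 gene lists were drawn up, which together covered 2578 retained genes (21.9%). The limit on the mean decides which members count, and over the alternatives tried the median of 69 of the 85 lists with retained members moved by more than 1.5 times or changed sign, so the medians below are read as rough positions. A lower member under 1 RPKM in the knockdown library passed that limit only through the control. Such members are named for some lists, but their number per list was not worked out, so counts of lower genes carry this limit. The median log2 difference of 59 lists lay within 0.25 of 0. It was at least 0.25 in 16 lists and at most -0.25 in 10, and 1 list, the HOX genes, had no retained member. Beside the germline and histone genes, the highest medians belonged to ribosome biogenesis, intermediate filaments, amino acid synthesis and the proteasome. That of intermediate filaments was 0.12 with no limit on the mean, while those of the other 3 lay between 0.41 and 0.85 in all settings. The lowest belonged to the hypoxia response, glycolysis, collagens, p53 targets, protocadherins and antigen presentation. The medians of mesoderm, heart and blood genes (-0.38, 7 genes) and of trophectoderm and placenta genes (-0.49, 4 genes) changed sign when the limit on the mean was 0.5 RPKM, to 0.23 and 0.62. Most lists of household function (respiration, secretion, mitosis, DNA repair, the cytoskeleton) had medians close to that of all genes.

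**Figure D2:**
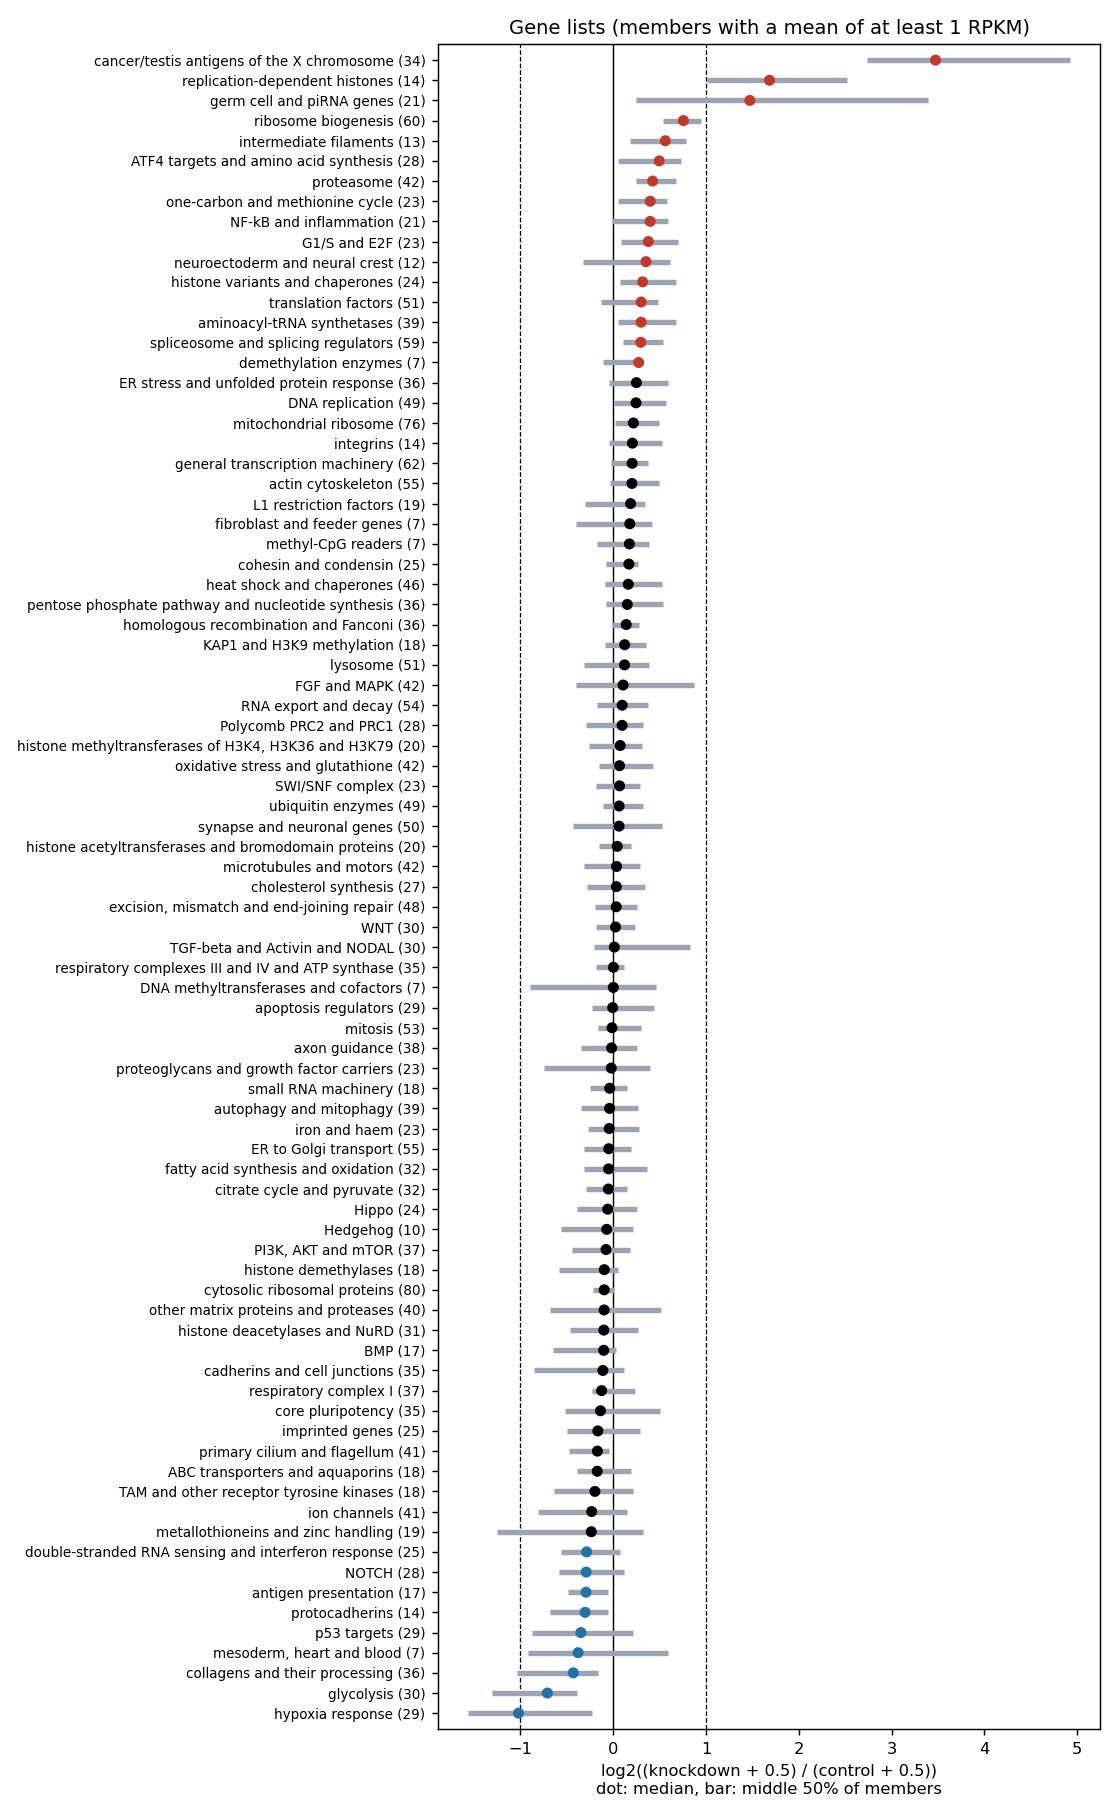
Median (dot) and middle 50% (bar) of the log2 difference between knockdown and control for each gene list with at least 5 retained members, whose number is in brackets; red dots mark medians of at least 0.25, blue dots medians of at most -0.25, and dashed lines a 2-fold difference. The hypoxia response (-1.02) and glycolysis (-0.71) lie lowest, and cancer/testis antigens (3.47) and replication-dependent histones (1.68) highest; many members of these 2 highest lists passed the limit on the mean only through the knockdown library, and with no limit the medians were 1.44 and 1.15.

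Within energy metabolism, the genes that stood apart were those of glycolysis, the breakdown of glucose outside the mitochondrion. Of 30 glycolysis genes 27 lay below 0, 9 were at least 2-fold lower and 0 at least 2-fold higher, with a median of -0.71. The summed level of the list was 7276 RPKM in the control against 5304 RPKM after knockdown. SLC16A3, the exporter that carries lactate out of strongly glycolytic cells, stood at 11.2 and 0.191 RPKM (log2 -4.08). It was under 1 RPKM in the knockdown library and passed only through the control. PFKP and PFKL, platelet and liver forms of phosphofructokinase, which commits sugar to glycolysis, stood at 38.8 and 9.18 RPKM (log2 -2.02) and at 38.9 and 12.97 RPKM (log2 -1.55). PFKFB4, which makes the activator of phosphofructokinase, stood at 11.1 and 3.21 RPKM (log2 -1.65). These 4 genes ranked lowest of the list. At the other end were HK1, a hexokinase, at 47.5 and 55.4 RPKM (log2 0.22), the muscle enolase ENO3 at 7.88 and 10.5 RPKM (log2 0.40), and GYS1, a glycogen synthase, at 9.28 and 9.74 RPKM (log2 0.066). GAPDH, the most abundant member, stood at 2559.7 and 2139.9 RPKM (log2 -0.26), within the 2-fold band.

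The hypoxia response, the set of genes that HIF transcription factors switch on when oxygen is short, had a median of -1.02. That median lay between -1.25 with a pseudocount of 0.1 and -0.66 with no limit on the mean, and in the latter setting it was not below that of glycolysis (-0.71). Of 29 retained genes 15 were at least 2-fold lower and 1 was at least 2-fold higher, against 4.84% and 4.04% of all genes, while 7 further members were under the limit. Some members also stand on other lists, and the 19 that do not had a median of -0.72. BNIP3, a mitochondrial receptor for mitophagy, stood at 149.9 and 9.64 RPKM (log2 -3.89), or 6.43% of control (95% counting interval 6.08 to 6.79%). DDIT4, an inhibitor of mTOR, stood at 92.2 and 12.2 RPKM (log2 -2.87). P4HA2, a prolyl hydroxylase that stabilises collagen, stood at 8.74 and 0.989 RPKM (log2 -2.63), and so passed only through the control. FAM162A, KDM3A and ERO1L were lower as well, FAM162A at 90.7 and 30.7 RPKM (log2 -1.55), the H3K9 demethylase KDM3A at 20.6 and 7.98 RPKM (log2 -1.31) and the oxidase ERO1L at 12.1 and 6.81 RPKM (log2 -0.79). Not every gene of oxygen sensing shared this pattern. HIF1A, the regulated subunit of the factor, stood at 37.6 and 47.6 RPKM (log2 0.34), and EGLN2, a hydroxylase that marks it for decay, at 22.2 and 28.2 RPKM (log2 0.34). The peptide hormone gene ADM, also a HIF target, was above 0 at 23.4 and 45.4 RPKM (log2 0.94).

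**Figure D3:**
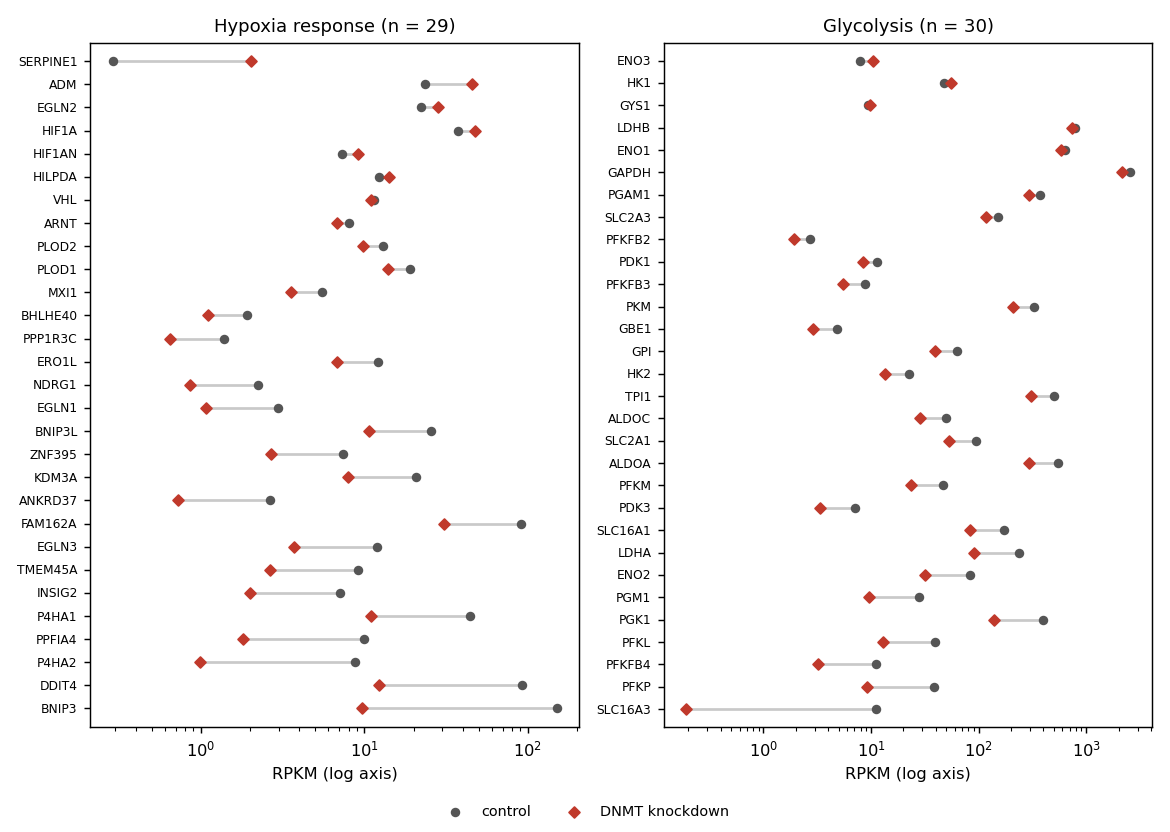
RPKM (log axis) of each retained gene of the hypoxia response (left, 29 genes) and of glycolysis (right, 30 genes) in the control (grey circles) and knockdown library (red diamonds), sorted by log2 difference. The knockdown value lies left of the control value for 23 of the 29 and 27 of the 30 genes.

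Mitochondrial energy genes showed no such shift. The median was -0.052 for 32 citrate cycle genes, -0.12 for 37 complex I genes and 0.0019 for 35 genes of complexes III and IV and ATP synthase, and no gene of these 3 lists was past 2-fold in either direction. Within the citrate cycle list the lowest member was IDH2, the mitochondrial isocitrate dehydrogenase, at 26.7 and 16.4 RPKM (log2 -0.68). The cytosolic IDH1 stood at 106 and 177 RPKM (log2 0.74). Cholesterol synthesis (27 genes, median 0.034) and fatty acid metabolism (32 genes, median -0.049) were centred near 0, with 1 called gene between them, the short-chain acyl-CoA dehydrogenase ACADS at 3.55 and 0.554 RPKM (log2 -1.94).

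Nucleotide and one-carbon genes lay slightly higher. The 23 genes of the one-carbon and methionine cycle had a median of 0.40, with 18 above 0. ODC1, which starts polyamine synthesis, stood at 17.5 and 51.6 RPKM (log2 1.53), and SRM, the next enzyme of that path, at 24.9 and 47.8 RPKM (log2 0.93). In the nucleotide list (36 genes, median 0.15) the called genes were RRM2, the small subunit of ribonucleotide reductase, at 14.2 and 43.2 RPKM (log2 1.57) and RPIA, a ribose isomerase, at 7.15 and 16.6 RPKM (log2 1.16). Neither list had a gene at least 2-fold lower.

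Genes that build ribosomes had the highest median among the functions that every cell carries out. Of 60 ribosome biogenesis genes 56 lay above 0, 11 were at least 2-fold higher and 0 lower, and the median was 0.76. All 60 listed genes passed the limit on the mean. The nucleolar protein SURF6 stood at 9.71 and 30.6 RPKM (log2 1.61), UTP20 of the small subunit processome at 3.49 and 10.1 RPKM (log2 1.41), NOP16 at 12.7 and 34.2 RPKM (log2 1.39) and the methyltransferase EMG1 at 15.7 and 40.4 RPKM (log2 1.34). NCL, nucleolin, an abundant nucleolar protein, stood at 281 and 512 RPKM (log2 0.86). The 4 members below 0 were POLR1D, a subunit shared by RNA polymerases I and III, at 76.3 and 58.1 RPKM (log2 -0.39), the endonuclease NOB1 at 34.04 and 30.3 RPKM (log2 -0.17), the nucleolar chaperone NPM1 at 1309.5 and 1212 RPKM (log2 -0.11) and POLR1E at 11.4 and 11.2 RPKM (log2 -0.031).

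The ribosomal proteins themselves were close to level between the libraries. Of 80 genes 56 lay below 0 with a median of -0.097, and 1 was past 2-fold, RPL22L1, a paralog of RPL22, at 13.9 and 46.9 RPKM (log2 1.72). RPS24 stood lowest at 136 and 68.9 RPKM (log2 -0.98). This list made up a large part of all transcripts, 70937 RPKM in the control against 65643 RPKM after knockdown. Setting its median to 0, an alternative scaling chosen after the data were seen, adds 0.097 to every log2 difference and so turns the sign of genes and medians between -0.097 and 0. It gave 620 higher and 453 lower genes, so that 57.8% of the called genes were higher, against 45.5% as reported. Ribosomal protein genes have many near-identical processed copies in the genome, and the sources used here do not say how reads matching several places were assigned, so that single members are uncertain.

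Other parts of the translation apparatus lay between these lists. The 39 aminoacyl-tRNA synthetases and their partners had a median of 0.30 with 30 above 0 and none past 2-fold, and the mitochondrial ribosome a median of 0.22 with 61 of 76 above 0. Translation factors had a median of 0.30 but were split. Elongation factors were among the lowest: EEF1A1, the most abundant message of the list, stood at 4405 and 2985 RPKM (log2 -0.56), EEF2 at 872 and 511 RPKM (log2 -0.77) and EEF1A2, the form of neurons and muscle, at 7.93 and 0.493 RPKM (log2 -3.09). EIF5A, which helps ribosomes through stalling sequences, stood at 232 and 419 RPKM (log2 0.85), and EIF6, which also acts in ribosome assembly, at 50.1 and 83.2 RPKM (log2 0.73). The initiation factor subunit EIF3F lay below 0 at 125 and 87.2 RPKM (log2 -0.52).

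Proteasome subunits lay higher nearly throughout. Of 42 genes 37 were above 0 and 4 at least 2-fold higher, with a median of 0.42 and a summed level of 2067 RPKM in the control against 2732 RPKM after knockdown. The 4 were PSMB10, a catalytic subunit of the immunoproteasome, at 4.93 and 14.02 RPKM (log2 1.42), PSME3, the nuclear activator cap, at 20.3 and 47.3 RPKM (log2 1.20), the deubiquitinase of the lid PSMD14 at 35.6 and 79.4 RPKM (log2 1.15), and the lid subunit PSMD12 at 19.4 and 41.5 RPKM (log2 1.08). PSMB8, another immunoproteasome subunit, and PSME1, an interferon-induced activator, stood on the other side of 0, at 6.58 and 4.55 RPKM (log2 -0.49) and at 31.3 and 19.98 RPKM (log2 -0.64). Ubiquitin enzymes as a list (49 genes, median 0.064) stood near 0, with 1 called gene, the deubiquitinase USP9X at 69.4 and 20.1 RPKM (log2 -1.77).

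**Figure D4:**
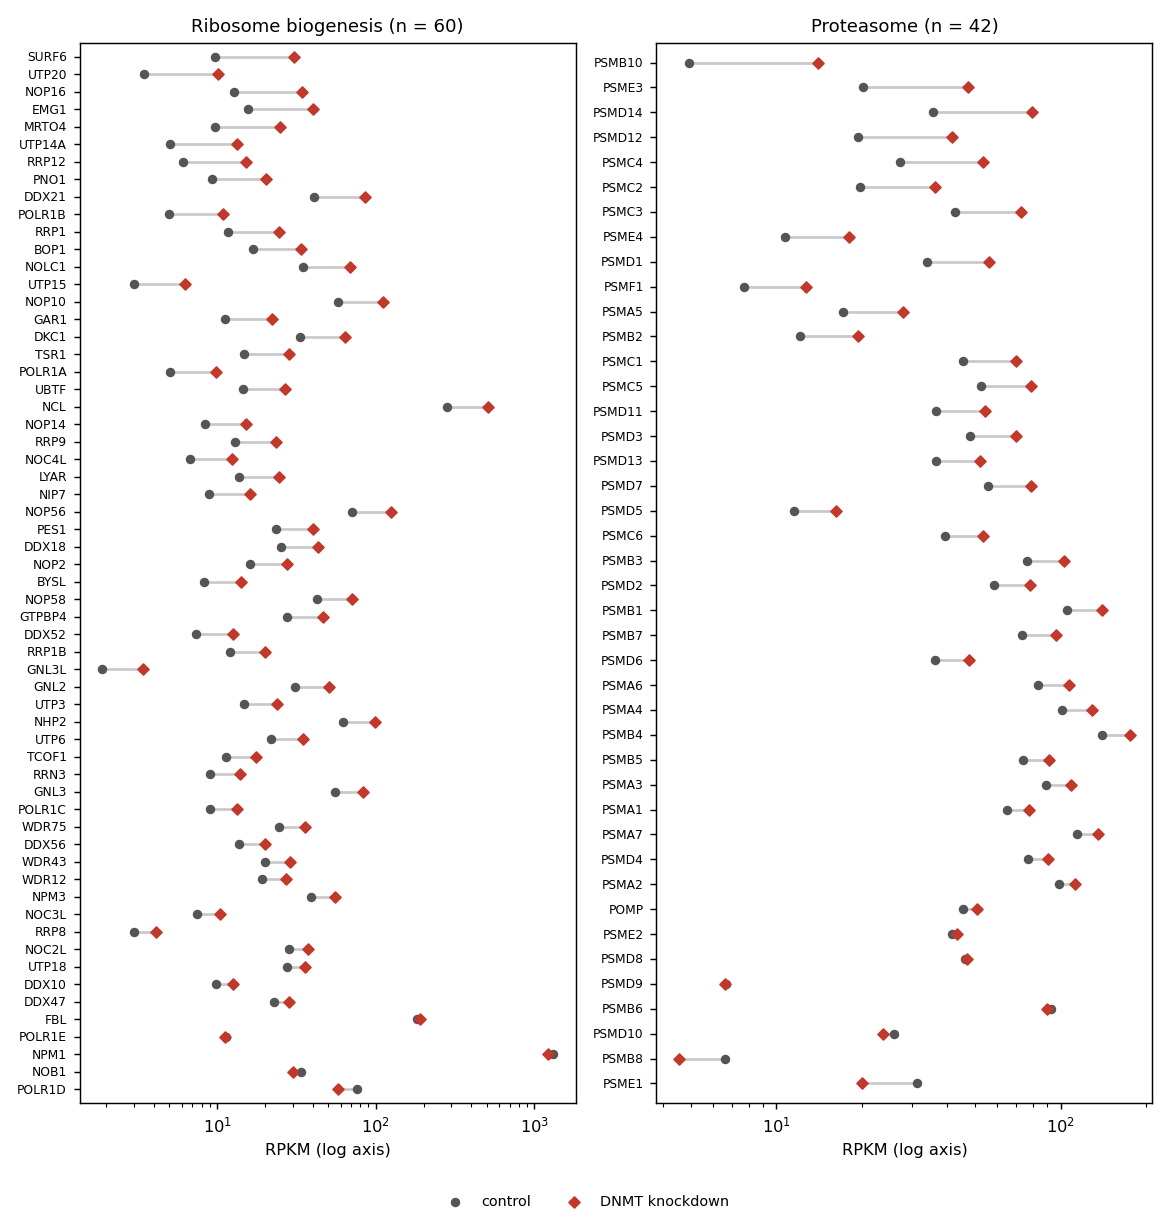
RPKM (log axis) of each retained gene of ribosome biogenesis (left, 60 genes) and of the proteasome (right, 42 genes) in the control (grey circles) and knockdown library (red diamonds), sorted by log2 difference. The knockdown value lies to the right for 56 of the 60 and 37 of the 42 genes.

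Genes of RNA processing lay above 0 for the most part. Of 59 splicing genes 50 lay above 0 with a median of 0.30, and 1 passed 2-fold, HNRNPM, a splicing regulator, at 67.3 and 174 RPKM (log2 1.36). HNRNPU, a nuclear matrix protein, stood just under that limit at 59.2 and 116 RPKM (log2 0.97). General transcription factors had a median of 0.20 and RNA export and decay genes one of 0.096. POLR2G, a subunit of RNA polymerase II, stood at 34.3 and 78.8 RPKM (log2 1.19), while MED14, a Mediator subunit, stood at 28.99 and 12.8 RPKM (log2 -1.15). The small RNA machinery, with 18 genes, had a median of -0.038.

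Genes of protein folding and amino acid supply were examined next. Heat shock genes and chaperones (46 genes) had a median of 0.16 and none past 2-fold. HSPA8, the constitutive cytosolic HSP70 and one of the 10 largest increases in RPKM, stood at 422 and 765 RPKM (log2 0.86). For endoplasmic reticulum stress the median was 0.25 over 36 genes, with HSPA5, the HSP70 of that compartment, at 61.3 and 129.7 RPKM (log2 1.08) and the pseudokinase TRIB3 at 2.12 and 4.91 RPKM (log2 1.04). Targets of ATF4 and amino acid synthesis genes had a median of 0.50, with 3 of 28 genes at least 2-fold higher and 2 lower. The higher genes were the cystine carrier SLC7A11 at 1.60 and 6.79 RPKM (log2 1.80), the leucine carrier SLC7A5 at 20.6 and 53.8 RPKM (log2 1.36) and PSAT1, of serine synthesis, at 78.01 and 177 RPKM (log2 1.18). The lower ones were DDIT4, which is on the hypoxia list as well, and the lipoprotein receptor VLDLR at 24.5 and 8.19 RPKM (log2 -1.52).

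Oxidative stress genes had a median of 0.068 over 42 genes, but their extremes were far apart. NQO1 and HMOX1, which NRF2 induces, stood at 7.01 and 25.3 RPKM (log2 1.78) and at 3.05 and 10.04 RPKM (log2 1.57). TXNIP, an inhibitor of thioredoxin and of glucose uptake, stood at 49.3 and 5.92 RPKM (log2 -2.95). Metallothioneins, small proteins that bind zinc and copper, were among the lowest genes of the whole table, and of 19 genes on the list of metallothioneins and zinc handling 6 were at least 2-fold lower and 3 higher (median -0.24). MT1X stood at 400.2 and 60.6 RPKM (log2 -2.71), MT1G at 184 and 20.1 RPKM (log2 -3.16), MT1E at 68.2 and 4.50 RPKM (log2 -3.78) and MT1H at 79.5 and 13.4 RPKM (log2 -2.52). These genes are close copies of each other, so the split between them is uncertain, and all 4 were at least 2-fold lower. The zinc importers SLC39A4, SLC39A14 and SLC39A8 on the same list lay on the other side, SLC39A4 at 1.34 and 5.64 RPKM (log2 1.74), SLC39A14 at 19.3 and 44.9 RPKM (log2 1.20) and SLC39A8 at 2.86 and 6.47 RPKM (log2 1.05).

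Autophagy and mitophagy genes had a median of -0.039 over 39 genes, with 6 at least 2-fold lower and 0 higher. Of the lower genes, 3 serve mitophagy: BNIP3, the adaptor OPTN at 11.97 and 2.11 RPKM (log2 -2.25) and the kinase PINK1 at 8.78 and 2.56 RPKM (log2 -1.60). The autophagosome protein MAP1LC3A stood at 3.69 and 1.17 RPKM (log2 -1.33) and its relative MAP1LC3B at 16.4 and 24.4 RPKM (log2 0.56). Another relative, MAP1LC3C, which was not on the list, stood at 11.7 and 0.880 RPKM (log2 -3.15). The cargo adaptor SQSTM1 stood at 19.2 and 31.01 RPKM (log2 0.68). Lysosome genes (51 genes, median 0.12) held 1 called gene, the acid glucosidase GAA at 16.1 and 3.96 RPKM (log2 -1.90).

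The 3 cell cycle lists differed in their medians. Genes of G1, of the step into S phase and of E2F had a median of 0.38 over 23 genes, DNA replication one of 0.25 over 49 and mitosis one of -0.013 over 53, with no mitosis gene past 2-fold in either direction. The replicative helicase subunit MCM7 stood at 71.8 and 148 RPKM (log2 1.03) and TIPIN, of the fork protection complex, at 5.03 and 12.1 RPKM (log2 1.19). The G1 cyclins CCND1 and CCNE2 were at least 2-fold higher, CCND1 at 12.2 and 28.8 RPKM (log2 1.21) and CCNE2 at 0.833 and 2.31 RPKM (log2 1.07). Inhibitors of cyclin-dependent kinases lay on both sides, the imprinted CDKN1C at 10.6 and 0.597 RPKM (log2 -3.34), CDKN1B at 13.4 and 6.74 RPKM (log2 -0.94) and CDKN2D at 1.13 and 2.39 RPKM (log2 0.83). The mitotic kinase CDK1 stood lowest of its list at 66.2 and 39.4 RPKM (log2 -0.74).

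Replication-dependent histone genes stood apart with a median of 1.68 over 14 retained genes, of which 10 were at least 2-fold higher and 0 lower. The control level of 6 of the retained genes was under 1 RPKM, so that these passed only through the knockdown library, and 4 of the 6 were among the higher genes. The median was 1.15 with no limit on the mean and 2.74 with a limit of 5 RPKM. With control levels above the limit, HIST1H2BK stood at 2.40 and 49.6 RPKM (log2 4.11), HIST1H1C at 4.21 and 32.5 RPKM (log2 2.81) and HIST1H2AC at 1.67 and 13.3 RPKM (log2 2.67). A further 12 were under the limit, the highest at 1.74 RPKM. Most messages of these genes lack a poly(A) tail and are only in part captured by poly(A) selection, and their copies are close in sequence. The part of tail length or read placement in this difference was not tested. Histone variants and chaperones, whose messages carry tails, had a median of 0.32 over 24 genes, with macroH2A (H2AFY) at 25.8 and 67.95 RPKM (log2 1.38), H2A.Z (H2AFZ) at 331 and 573 RPKM (log2 0.79) and the linker histone H1F0 at 119 and 59.4 RPKM (log2 -0.99).

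Targets of p53 had a median below 0, with 17 of 29 genes below 0 and 12 above. Of 29 genes 7 were at least 2-fold lower and 0 higher, against 4.84% and 4.04% of all genes, and the median was -0.35. DDB2, a sensor of ultraviolet damage, stood at 20.2 and 5.78 RPKM (log2 -1.72), and RRM2B, the p53-induced ribonucleotide reductase subunit, at 29.05 and 9.73 RPKM (log2 -1.53). CDKN1A, the cell cycle inhibitor p21, stood at 11.5 and 4.49 RPKM (log2 -1.27), and PMAIP1, the apoptosis activator NOXA, at 143 and 66.6 RPKM (log2 -1.09). Among the 12 targets above 0, TP53I3 stood at 7.70 and 15.7 RPKM (log2 0.98). Repair genes as such were centred near all genes, with medians of 0.14 over 36 genes of recombination and 0.032 over 48 genes of the other repair paths. In the apoptosis list (median -0.0056, 29 genes) the called genes were the pro-apoptotic BIK at 3.59 and 0.247 RPKM (log2 -2.45) and the initiator protease CASP8 at 0.462 and 1.96 RPKM (log2 1.36).

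Most signalling lists had medians close to 0, but some had wide spreads. In TGF-beta, Activin and NODAL signalling 7 of 30 retained genes were at least 2-fold higher and 3 lower, with a median of 0.012 that was -0.14 with a limit of 5 RPKM. The ligand NODAL stood at 1.14 and 11.6 RPKM (log2 2.88). Its secreted antagonists LEFTY1 and LEFTY2, which NODAL signalling induces, stood at 2.78 and 31.4 RPKM (log2 3.28) and at 1.996 and 18.4 RPKM (log2 2.92), and CER1, another antagonist, at 0.600 and 3.33 RPKM (log2 1.80). The NODAL coreceptor TDGF1 went the other way (log2 -1.54, as given above), as did the Activin binders FST at 5.92 and 2.09 RPKM (log2 -1.31) and FSTL3 at 1.97 and 0.625 RPKM (log2 -1.14). Of the 7 higher genes 2, CER1 among them, were under 1 RPKM in the control and passed only through the knockdown library. Of the 3 lower genes, FSTL3 was under 1 RPKM in the knockdown library and passed only through the control. The ligand, LEFTY1 and LEFTY2 were higher and the coreceptor lower, while receptors and SMAD2, SMAD3 and SMAD4 lay within the 2-fold band.

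FGF and MAPK signalling had 9 of 42 genes at least 2-fold higher and 4 lower, against 4.04% and 4.84% of all genes, with a median of 0.11. Of the 9, 1 was under 1 RPKM in the control and passed only through the knockdown library. Of the 4, FGFR3 and FGFRL1 were under 1 RPKM in the knockdown library and passed only through the control. The highest were genes that ERK signalling induces, some of which restrain it. The transcription factor ETV4 stood at 6.19 and 34.7 RPKM (log2 2.40), the inhibitor SPRY4 at 4.27 and 20.2 RPKM (log2 2.12), and the phosphatases DUSP5 and DUSP6 at 1.38 and 7.58 RPKM (log2 2.10) and at 11.9 and 51.1 RPKM (log2 2.06). The 4 lowest were FGF and FGF receptor genes. FGF2, a growth factor that sustains human ES cells, stood at 36.4 and 13.6 RPKM (log2 -1.39), FGF11, an FGF homologous factor that stays within the cell, at 15.8 and 5.34 RPKM (log2 -1.48), the receptor FGFR3 at 6.43 and 0.550 RPKM (log2 -2.72) and the decoy receptor FGFRL1 at 2.67 and 0.982 RPKM (log2 -1.10). Ligands and receptors were not all lower: the ligand FGF19 and the receptor FGFR4, picked after their values were seen, stood at 1.42 and 7.28 RPKM (log2 2.02) and at 18.3 and 27.3 RPKM (log2 0.57).

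**Figure D5:**
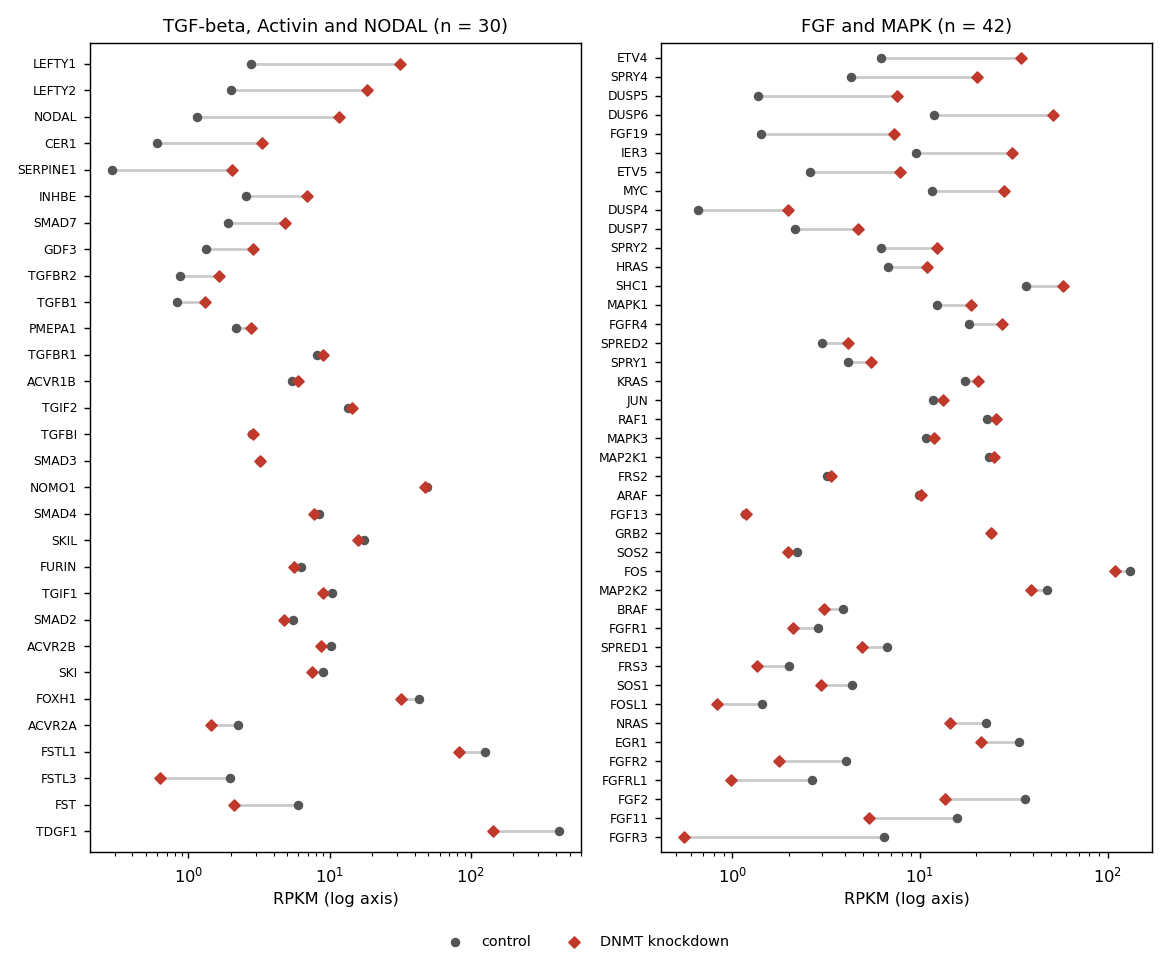
RPKM (log axis) of each retained gene of TGF-beta, Activin and NODAL signalling (left, 30 genes) and of FGF and MAPK signalling (right, 42 genes) in the control (grey circles) and knockdown library (red diamonds), sorted by log2 difference. LEFTY1, LEFTY2 and NODAL lead the left panel and ETV4 and SPRY4 the right, while TDGF1 and FGFR3 lie lowest.

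BMP signalling held 4 lower and 1 higher gene among 17. ID1 and ID2, inhibitors of differentiation that BMP induces, stood at 128 and 42.8 RPKM (log2 -1.57) and at 31.3 and 6.74 RPKM (log2 -2.13), and ID4 at 4.33 and 1.32 RPKM (log2 -1.41). Their relative ID3 went the other way at 17.97 and 51.5 RPKM (log2 1.49). The ligand BMP7 stood at 2.85 and 0.593 RPKM (log2 -1.61), and so passed the limit on the mean only through the control.

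NOTCH genes had a median of -0.29 over 28 genes, which was -0.062 with no limit on the mean. The ligand DLL1 stood at 2.97 and 0.167 RPKM (log2 -2.38) and the receptor NOTCH1 at 7.66 and 2.74 RPKM (log2 -1.33), while DLL3, a ligand that acts within the cell, stood at 2.24 and 5.56 RPKM (log2 1.14). DLL1 passed the limit on the mean only through the control. WNT genes were centred at 0.025 over 30 genes. Within them the receptor LGR4 stood at 21.6 and 9.10 RPKM (log2 -1.20) and the secreted antagonist SFRP2 at 67.8 and 156 RPKM (log2 1.20). Hippo (24 genes, -0.059), Hedgehog (10 genes, -0.070) and PI3K, AKT and mTOR genes (37 genes, -0.077) had medians within 0.1 of 0. Among receptor tyrosine kinases and their ligands, GAS6, the ligand of the TAM receptors, stood at 17.6 and 1.18 RPKM (log2 -3.42), and the collagen receptor DDR2 at 0.2999 and 2.75 RPKM (log2 2.02).

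Among matrix genes, the collagens stood lowest. Of 36 retained collagen and collagen processing genes 9 were at least 2-fold lower, 0 higher and 28 below 0, with a median of -0.43. The shares over all genes were 4.84% lower and 4.04% higher. Among the 9, COL9A3 and P4HA2 were under 1 RPKM in the knockdown library and passed only through the control. COL9A3 stood at 16.2 and 0.936 RPKM (log2 -3.54), COL6A1 at 30.4 and 3.51 RPKM (log2 -2.95), COL6A2 at 25.5 and 4.11 RPKM (log2 -2.50) and the basement membrane collagen COL18A1 at 60.1 and 14.5 RPKM (log2 -2.02). COL1A1 and COL1A2, the type I chains, stood at 22.8 and 18.2 RPKM (log2 -0.32) and at 36.7 and 26.1 RPKM (log2 -0.48). The collagen chaperone SERPINH1 lay on the other side at 105 and 158 RPKM (log2 0.59). Other matrix genes were mixed (median -0.098, 40 genes), with fibronectin, FN1, at 12.3 and 4.89 RPKM (log2 -1.25) and the protease ADAMTS1 at 1.72 and 9.56 RPKM (log2 2.18). IGFBP2, a carrier of insulin-like growth factors, stood at 344 and 78.5 RPKM (log2 -2.12), and the proteoglycan GPC3 at 37.7 and 11.97 RPKM (log2 -1.61). MFGE8, another secreted glycoprotein and one of the 10 largest decreases in RPKM, stood at 493 and 134 RPKM (log2 -1.88).

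Cell contact and cytoskeleton lists, other than intermediate filaments and protocadherins, had medians within 0.25 of 0. The junction list had a median of -0.11 over 35 genes, with the tight junction protein CLDN3 at 9.91 and 1.09 RPKM (log2 -2.71) and the gap junction protein GJA1 at 309 and 175 RPKM (log2 -0.82). The 14 retained protocadherins had a median of -0.30 and none past 2-fold, while 45 were under the limit. Intermediate filaments had a median of 0.56 over 13 genes, with 12 more under the limit. The keratins of simple epithelia KRT8 and KRT18 stood at 106 and 252 RPKM (log2 1.25) and at 63.5 and 175 RPKM (log2 1.46), and vimentin, VIM, at 63.2 and 31.8 RPKM (log2 -0.98). Other keratins of the list, KRT7 and KRT19, lay on the other side. They stood at 11.4 and 2.84 RPKM (log2 -1.83) and at 62.1 and 45.4 RPKM (log2 -0.45). Actin (55 genes, 0.20) and microtubule genes (42 genes, 0.036) had 4 and 3 called genes, among them tropomyosin TPM1 at 132 and 50.5 RPKM (log2 -1.38) and the tubulin TUBA4A at 12.3 and 47.1 RPKM (log2 1.89). Cilium genes lay below 0 in 33 of 41 cases with a median of -0.17, and BBS2, of the transport complex of the cilium, stood at 8.88 and 3.11 RPKM (log2 -1.38).

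Ion channel genes had 5 lower (12.2%) and 0 higher members among 41, with a median of -0.23. The share of lower genes was 4.84% over all genes and 9.24% over genes with a mean between 1 and 2 RPKM. Among the lower channel genes, CACNA1H, KCNG3 and KCNK12 were under 1 RPKM in the knockdown library and passed only through the control. The calcium channel CACNA1H stood at 7.52 and 0.744 RPKM (log2 -2.69). Synaptic and neuronal genes had 6 higher and 5 lower members among 50. Of the 6, 2 were under 1 RPKM in the control and passed only through the knockdown library, VGF among them. SYN3 and NPTX1, of the synapse, stood at 10.9 and 1.96 RPKM (log2 -2.21) and at 23.5 and 4.85 RPKM (log2 -2.16), while the secretory granule genes CHGA and VGF stood at 9.87 and 28.3 RPKM (log2 1.48) and at 0.280 and 5.05 RPKM (log2 2.83).

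The chromatin machinery was close to level between the libraries. The medians were 0.12 over 18 KAP1 and H3K9 methylation genes, 0.096 over 28 Polycomb genes, 0.068 over 23 SWI/SNF genes, 0.043 over 20 acetyltransferase and bromodomain genes and -0.10 over 31 deacetylase genes. Among the few called genes, BMI1, of Polycomb complex 1, stood at 1.25 and 3.84 RPKM (log2 1.31), the H3K9 demethylase KDM4B at 13.01 and 4.09 RPKM (log2 -1.56) and the condensin subunit NCAPG2 at 49.1 and 19.2 RPKM (log2 -1.33). Readers of methylated CpG (7 genes, 0.17) and demethylation enzymes (7 genes, 0.27) had none past 2-fold, and TET1, which oxidises methylcytosine, stood at 8.32 and 10.2 RPKM (log2 0.27).

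ZFP57, the zinc finger protein that guards imprints and recruits KAP1, stood at 0.159 and 4.98 RPKM (log2 3.06). It was under 1 RPKM in the control and passed only through the knockdown library. Imprinted genes had 2 higher and 4 lower members among 25, with a median of -0.17 that became 0.022 with no limit on the mean. The 2 higher members were under 1 RPKM in the control and passed only through the knockdown library, so their count supports nothing. MEG3, a noncoding RNA of an imprinted cluster, stood at 0.0343 and 5.05 RPKM (log2 3.38). CDKN1C and SLC22A18, which lie in 1 imprinted cluster, were lower, SLC22A18 at 2.50 and 0.306 RPKM (log2 -1.90). Both were under 1 RPKM in the knockdown library and passed only through the control, so the count of 4 lower members carries the same limit. NNAT stood at 21.1 and 9.73 RPKM (log2 -1.08) and SNURF at 126 and 82.2 RPKM (log2 -0.61).

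Core pluripotency genes were spread to both sides, with 4 of 35 at least 2-fold higher, 3 lower and a median of -0.14. NANOG stood at 17.3 and 32.6 RPKM (log2 0.90) and SOX2 at 107 and 66.4 RPKM (log2 -0.69), both within the 2-fold band. The 4 higher genes were L1TD1 and ETV4, which are given with the H1 markers and with FGF signalling, and DPPA5 and DPPA3, genes of the early embryo and germ line, at 0.555 and 52.7 RPKM (log2 5.66) and at 0.314 and 6.79 RPKM (log2 3.16). DPPA5 and DPPA3 were under 1 RPKM in the control and passed only through the knockdown library. The 3 lower genes were TERT, the telomerase reverse transcriptase, at 3.37 and 0.721 RPKM (log2 -1.66), TDGF1, and DNMT3B, itself a DNA methyltransferase. TERT was under 1 RPKM in the knockdown library and passed only through the control.

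Lineage genes were mostly under the limit. Of the listed genes in the table, 12 of 44 were retained for neuroectoderm, 3 of 36 for mesendoderm, 7 of 41 for mesoderm, 4 of 50 for trophectoderm and 0 of 39 for HOX genes. The factor SOX21 stood at 6.87 and 0.362 RPKM (log2 -3.10), HESX1, of the anterior plate, at 1.86 and 7.48 RPKM (log2 1.76), and the embryonic globin HBE1 at 0.121 and 5.14 RPKM (log2 3.18). Among 10 markers for each other cell type, the summed level in the control and knockdown library was 0.902 and 5.40 RPKM for endoderm, 13.3 and 8.40 for mesoderm, 11.5 and 3.00 for trophectoderm and 0.697 and 1.35 for neuroectoderm. Single genes carried these sums. The keratin KRT7 made up nearly all of the trophectoderm sum at 11.4 and 2.84 RPKM, with the other 9 markers under 1 RPKM in both libraries, and the receptor KDR most of the mesoderm sum at 11.02 and 7.35 RPKM. CER1 carried most of the endoderm sum, the factor FOXA2 stood at 0.00816 and 1.24 RPKM, and SOX17, a defining endoderm factor, at 0 and 0.00460 RPKM. For fibroblasts or feeder cells the sums were 97.2 and 156 RPKM, with 4 of 10 markers retained. THY1, which ES cells also carry on their surface, stood at 35.2 and 109 RPKM (log2 1.62) and made up most of the second sum, while the fibroblast marker FAP was at 0 in both libraries and DCN, another, was at 0 and 0.0201 RPKM. COL1A1 and COL1A2 were both below 0. The part of such cells in the collagen difference was not tested.

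Germline genes were prominent among the largest differences. All 34 retained cancer/testis antigens of the X chromosome were at least 2-fold higher, with a summed level of 17.99 RPKM in the control against 618 RPKM after knockdown. Most of them were under 1 RPKM in the control and passed the limit on the mean only through the knockdown library, so that they had to differ and their count supports nothing. A further 45 genes were under the limit. MAGEA4, whose control level was not near 0, stood at 7.29 and 88.8 RPKM (log2 3.52). MAGEB2 stood at 0.0791 and 20.2 RPKM (log2 5.16) and VCX3A at 0.563 and 68.8 RPKM (log2 6.03). MAGE, GAGE and VCX genes have near-identical copies, so single values are uncertain. Of 21 retained germ cell and piRNA genes 12 were at least 2-fold higher and 1 lower, while 41 were under the limit. Of the 12, 9 were under 1 RPKM in the control and passed only through the knockdown library, so this count supports nothing either, and the median of 1.47 was 0.28 with no limit on the mean. The other 3 were DAZL, an RNA-binding protein of germ cells, at 2.90 and 91.2 RPKM (log2 4.75), CTCFL, the germline relative of CTCF, at 8.56 and 24.6 RPKM (log2 1.47), and PIWIL2, of the piRNA path and picked after its values were seen, at 3.43 and 8.13 RPKM (log2 1.13). GTSF1, of the same path but under 1 RPKM in the control, stood at 0.518 and 25.4 RPKM (log2 4.67). MEIOB, a meiotic recombination protein, went the other way at 4.34 and 0.162 RPKM (log2 -2.87). It was under 1 RPKM in the knockdown library and passed only through the control.

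Genes that were nearly silent in 1 library were counted with limits of under 0.2 RPKM in that library and at least 2 RPKM in the other. There were 58 such genes with the low value in the control and 14 with the low value in the knockdown library. The 2 germline lists held 27 of the 58, and 50 of the 58 were protein coding. Without the germline lists, 429 genes were at least 2-fold higher and 568 lower, so most called genes of both directions lay outside them.

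Immune genes lay on both sides of 0. Interferon and double-stranded RNA sensing genes had 2 lower and 0 higher members among 25, with a median of -0.29. A further 22 were under the limit, and the median was 0 with no limit and -0.51 with a limit of 5 RPKM. IFITM1, an antiviral membrane protein, stood at 114 and 44.4 RPKM (log2 -1.34) and SAMHD1, which depletes nucleotides, at 10.8 and 4.19 RPKM (log2 -1.27). The sensor DDX58 (RIG-I) stood at 1.37 and 1.95 RPKM (log2 0.39), and BST2, a tetherin, at 43.1 and 77.3 RPKM (log2 0.84). In antigen presentation (17 genes, median -0.29) HLA-B stood at 26.1 and 12.6 RPKM (log2 -1.02), HLA-E at 17.7 and 8.22 RPKM (log2 -1.06) and B2M, their light chain, at 68.3 and 97.2 RPKM (log2 0.51). Inflammation genes had a median of 0.40 over 21 genes, which was 0.16 when the 24 under the limit were included, with the chemokine CXCL5 at 11.6 and 27.6 RPKM (log2 1.22).

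At the 2-fold limits the values were continuous. The 3 genes just inside the upper 2-fold limit, GLTP, CAPRIN2 and SPP1, stood at 3.95 and 8.40 RPKM (log2 1.0004), 7.93 and 16.4 RPKM (log2 1.0004) and 9.85 and 20.2 RPKM (log2 1.0005), and the 3 just outside, RNF4, CDC42EP1 and DOCK2, at 17.5 and 35.6 RPKM (log2 0.9996), 1.35 and 3.21 RPKM (log2 0.9999) and 1.28 and 3.06 RPKM (log2 0.998). At the lower limit GSE1, KLHL36 and BCAM were just inside, at 10.4 and 4.96 RPKM (log2 -1.002), 4.65 and 2.07 RPKM (log2 -1.003) and 42.1 and 20.7 RPKM (log2 -1.004). BMP1, FOXRED2 and TNFRSF25 were just outside, at 1.94 and 0.719 RPKM (log2 -0.9999), 3.98 and 1.74 RPKM (log2 -0.9996) and 3.65 and 1.58 RPKM (log2 -0.999). At the limit on the mean, MAGEL2 with a mean of 1.00058 RPKM was the lowest retained gene and LAT with 0.999811 the highest left out.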

How the data were processed

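The authors deposited RPKM values per RefSeq entry for 1 control and 1 DNMT knockdown library. Per the submitters' processing notes, reads were handled with Bowtie 0.12.5 and the build hg19 was used for human (mm9 for mouse). The annotation release, the use of strand and the handling of reads that match several places are left unstated by the sources used here. Gene symbols are those of the deposited table, in which 25 symbols had been turned into dates (16 retained).

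For each symbol the entry with the highest mean was kept, and genes with a mean of at least 1 RPKM were retained. The difference was log2((knockdown + 0.5) / (control + 0.5)), and called means at least 2-fold. Each group had 1 library, so no test was run, no set test was made, and lists are described by counts and medians beside those of all genes. The RPKM values are not counts. Whole reads were worked out from the deposited RPKM of L1 copies of known length: the totals of 100921087 (control) and 92478094 (knockdown) reads turned 100% of these values into whole numbers within 0.01 reads. The smallest entry length (up to 120000 bp) that gave whole reads in both libraries within 0.0005 reads was then taken, which can understate reads and widen an interval. Intervals are 95% exact binomial intervals on these reads and cover counting error only.

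The members and the 86 lists were chosen with earlier results of these data known. Named genes were DNMT1, DNMT3A and DNMT3B, the 15 coding genes with the highest and the 15 with the lowest log2 difference, the 10 largest increases and 10 largest decreases in RPKM, up to 4 highest, 4 lowest and the 2 most abundant members of each list, the 3 genes on each side of a limit, and fixed cell type markers. The text prints a selection of them. Y-linked genes are counted but not named. Among retained genes, 18 share an entry with another symbol. Alternatives were the pseudocount, the limit on the mean, the entry, the scaling and coding entries only. Steps were run in Python 3.11.15 with pandas 2.3.3, numpy 2.4.6, scipy 1.17.1 and matplotlib 3.10.9, and the calling was tested on simulated data.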

Additional observations from a re-analysis of the deposited data

How the results depend on the processing

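Each count and list median was recomputed with pseudocounts of 0.1 and 1, limits on the mean of 0.5 and 5 RPKM and none, the mean over a gene's entries, 2 other scalings and coding entries only. Chosen after seeing the data were 1 row per entry, leaving out the 2 germline lists and setting the ribosomal protein median to 0. The counts lay between 393 and 620 higher and between 424 and 715 lower genes in all settings but a limit of 5 RPKM, which tests fewer genes and gave 230 higher and 248 lower. Under some setting the median of 23 of 85 lists changed sign. For 18 of them it was within 0.1 of 0 as reported, among them TGF-beta, Activin and NODAL (-0.14 with a limit of 5 RPKM), fatty acids (0.25) and Hedgehog (0.13) with the same limit, and other matrix genes (0.042 with no limit). The other 5 were L1 restriction factors (-0.027 with no limit on the mean), mesoderm, heart and blood (0.23 with a limit of 0.5 RPKM and 0.025 with none), trophectoderm and placenta (0.62 with a limit of 0.5 RPKM), imprinted genes (0.022 with no limit) and ABC transporters and aquaporins (0.082 with a limit of 5 RPKM). The limits on the mean named here change which members are counted. Setting the ribosomal protein median to 0 keeps the members and adds the same amount to every log2 difference. That scaling turned medians just below 0, such as that of mitosis (to 0.084). The cause of the changes under the limits was not tested further. Of the 775 genes open to naming, 237 were called, 0 of the called changed sign, and 37 left the 2-fold range under some setting.

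No paired analysis was possible because each human group was 1 library. Leaving out a library would leave a group empty. Depth limits the low genes: below 1 RPKM a gene of 1 kb rests on fewer than 100.9 reads in the control.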

Other observations

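Retained genes were also grouped without lists, by the letters before the first digit of their symbol, and 145 families had at least 10 genes. The median log2 difference lay within 0.25 of 0 in 118 families, was at least 0.25 in 22 and at most -0.25 in 5. Beside the GAGE, MAGEA and histone families, the highest medians belonged to TIMM genes, whose products carry proteins into mitochondria (0.68, 13 of 14 above 0), MCM genes, most of which are subunits of the replicative helicase or load it (0.58, 10 of 11), SRSF splicing factors (0.47, 9 of 12), PSMD subunits of the proteasome cap (0.47, 12 of 15) and EXOSC subunits of the RNA exosome (0.46, 9 of 10). NUP genes of the nuclear pore (0.34, 16 of 20) and DDX helicases (0.35, 29 of 37) also lay above 0. The 5 lowest were COL collagens (-0.48, 21 of 25 below 0), GOLGA golgins (-0.46, 11 of 13), HDAC deacetylases (-0.38, 7 of 10), TM genes, which share letters rather than a function (-0.38, 8 of 11), and STX syntaxins of membrane fusion (-0.32, 9 of 14). Golgins have near-identical copies, so their members are uncertain. Many of these families overlap the lists, so they are no second data set.

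Entries for noncoding RNA made up 450 of the retained genes, with 25 higher and 25 lower (5.56% each), against 450 higher and 544 lower of 11313 coding genes (3.98% and 4.81%). Small nucleolar RNA genes with symbols in SNORA (20 genes) had a median of 0.31, with 17 above 0. These RNAs have no poly(A) tail of their own. Where a called gene had several entries above the limit, all such entries shared the sign, for 151 of 151 higher genes and 217 of 217 lower genes. Entries of the same gene can overlap and so share reads, and they come from the same libraries. Only the sign was compared, in genes already called, so this agreement is no independent check of the calls.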
